A study of Homo sapiens with 10 samples.

Results

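Messenger RNAs recovered with an antibody against YTHDF1 were compared with the RNA of the whole lysate in HCT116, a human colorectal cancer cell line. The deposited list holds 3939 genes, taken in full, each with its FPKM (fragments per kilobase of transcript, scaled to the mapped reads of the library) in the immunoprecipitate, its FPKM in the input, and their ratio. Every listed gene has a ratio of at least 1.5 and an input of at least 1 FPKM, so the list was already selected for recovery before deposit, and genes below these limits are seen only as absent. The listed genes nearest the limit among those of higher input were SFSWAP at a ratio of 1.501, LRPAP1 at 1.502 and JMJD8 at 1.502. The immunoprecipitate (RIP) and the input are 1 library each, both from cells of the control genotype. Differences between them therefore have no replicate check and no test, and all values below are descriptions. The rest of the series used here comprises 2 mRNA-seq and 2 ribosome footprint libraries of HCT116 cells after YTHDF1 knockdown, 1 control library of each assay with a hairpin against GFP, and 2 m6A-seq replicates of control cells. The knockdown libraries are titled shY1-1 (knockdown 1) and shY1-2 (knockdown 2) under the shared genotype shY1, and the labels do not say whether these are separate hairpins or repeats of the same one. The labels give cycloheximide at 100 ug/ml for 3 min, an agent that halts ribosomes on mRNA. The expression table of these mRNA and footprint libraries has 6914 named genes, of which 2438 (35.3%) are also in the YTHDF1 list.

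YTHDF1 belongs to the YTH family of readers, proteins that bind mRNA at N6-methyladenosine (m6A), a methyl mark placed mainly in the last exons and 3′ untranslated regions. The mark is written by a METTL3-containing complex and removed by the demethylases FTO and ALKBH5. YTHDF1 acts in the cytoplasm and is known as a factor linked to translation and turnover of marked mRNAs. The series addresses mRNAs that YTHDF1 regulates in colorectal cancer cells, with Wnt signalling named in its title.

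HCT116 cells carried epithelial markers, with keratins highest. Of 7 epithelial markers, 5 were in the expression table, with a summed control mRNA value of 3917. Single values were 1590 for KRT19, 1529 for KRT8, 636 for KRT18, 142 for EPCAM and 20.1 for CDH1. Of 7 fibroblast markers 3 were present at a summed value of 7.50, and of 6 blood markers only CD68 was present, at 19.9. The antibody's target was itself in the list. YTHDF1 (chromosome 20, 63195429 to 63216131 in GRCh38) stood at 32.1 FPKM in the immunoprecipitate and 12.8 FPKM in the input, a ratio of 2.50. In the expression table its mRNA value was 8.62 and 7.81 in the knockdown libraries, against 27.4 in the control.

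The depth behind the ratios could be recovered from the deposited values. FPKM is a whole number of reads divided by a length and by the library total, and the ratios in the list repeat exact fractions from which both totals follow. The immunoprecipitate had 1744412 mapped reads and the input 16168767, so the input was sequenced 9.27 times more deeply. Whole reads were recovered for 3937 of 3939 genes, the exceptions being TCF7L2 and CSNK2A1. They are the smallest whole numbers that the values allow and can be too small by a whole factor. In 541 genes the last m6A peak lies beyond the recovered length, and whether such a factor or another transcript model accounts for this was not tested. Reads and lengths below are therefore lower limits, and the intervals are then too wide. Listed genes had a median of 76 reads in the immunoprecipitate and 284 in the input, and 137 genes had 10 or fewer reads in the immunoprecipitate. Together they held at least 42.6% of the immunoprecipitate's reads and at least 16.9% of those of the input. The 95% interval of each ratio, exact and conditional on the summed reads, covers counting error only. It lay wholly above 1 for 3682 genes (93.5%), above 1.5 for 2454 (62.3%) and above 4 for 213. For many genes near the limit of 1.5, counting error alone thus spans that limit.

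Ratios were mostly small. The median was 2.28, with quartiles at 1.84 and 3.04. A ratio of at least 2 was reached by 2519 genes (64%), of at least 4 by 430 (10.9%) and of at least 8 by 40 (1.02%). Of the 40 genes at 8 or more, 13 were replication-dependent histones and 20 others belonged to the longest of 10 groups of listed genes by transcript span. Since FPKM is relative to each library's own total, a ratio above 1 says that an RNA took a larger share of the immunoprecipitate than of the input, and the absolute share bound by YTHDF1 is not measured.

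Replication-dependent histone mRNAs stood farthest from all others. These are made in S phase for packaging new DNA and, unlike other mRNAs, mostly end in a stem-loop in place of a poly(A) tail. All 14 in the list had a ratio of at least 4, with a median of 73.6 and a range of 6.79 to 650. HIST1H2BC, which encodes an H2B histone (chromosome 6, 26113170 to 26123926), had 1759 FPKM in the immunoprecipitate and 2.71 FPKM in the input. Its ratio of 650 rested on 1752 reads in the immunoprecipitate and 25 reads in the input, with a counting interval of 439 to 1007. HIST1H2AM, an H2A gene, had 2887 FPKM in the immunoprecipitate and 6.92 FPKM in the input, a ratio of 417. HIST1H2AH, also an H2A gene, had 794 FPKM in the immunoprecipitate and 1.44 FPKM in the input, a ratio of 552 with only 9 input reads behind it. H4 genes were represented by HIST1H4J at a ratio of 175 and HIST2H4B at 67.3, and the linker histone by HIST1H1C at 48.2. The 2 lowest ratios of the family belonged to HIST1H2AC at 9.74 and HIST3H2A at 6.79. HIST3H2A also had the highest input, 104.9 FPKM, against 712.2 FPKM in the immunoprecipitate. H2BFS, an H2B-like gene outside the fixed list, stood at 29.0 with 25 immunoprecipitate and 8 input reads.

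Histone transcripts took 0.637% of the reads of the immunoprecipitate and 0.0168% of those of the input. Of the 10 highest immunoprecipitate FPKM values in the list, 5 were histones. Histone genes are near-identical copies, so reads could be split among them in ways that the sources used here do not state, and single members are uncertain. The labels call the input mRNA-seq, and whether poly(A) selection was the same in both libraries is not given there. Its part in the histone ratios was not tested. Of replication-independent histone genes, whose mRNAs are mostly polyadenylated, H2AFX alone was listed, at a ratio of 1.70, below the median of the list. It was 1 of 7 such genes in the expression table (14.3%), against 24.2% of genes of like mRNA level. With transcript span matched too, on genes with an m6A peak, it was 1 of 6 (16.7%) against 13.2%. No direction can be read from so few genes. H3F3B and H3F3A, at control mRNA values of 592 and 326, were absent from the YTHDF1 list.

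**Figure D1:**
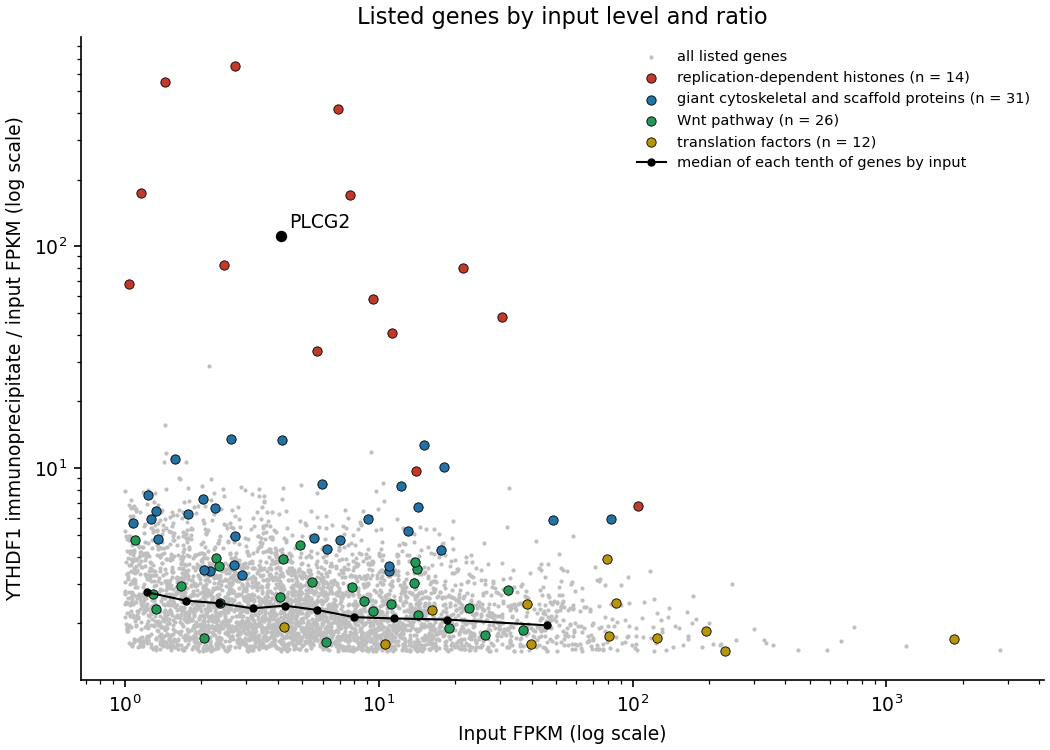
Ratio of immunoprecipitate to input FPKM against input FPKM, both on log scales, 1 point per listed gene, with 4 gene families coloured and the median of each of 10 groups by input joined by a line. The histones and PLCG2 lie far above the cloud, and the giant scaffold genes lie toward its upper edge over the input levels that they cover.

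PLCG2 was the 1 gene outside the histones with a ratio above 100. It encodes phospholipase C gamma 2, a signalling enzyme best known from blood cells (chromosome 16, 81739041 to 81962685). It stood at 454.6 FPKM in the immunoprecipitate and 4.10 FPKM in the input, a ratio of 111 with a counting interval of 102 to 121. With 6905 reads in the immunoprecipitate and 577 in the input it held 0.396% of all immunoprecipitate reads. Its m6A peaks numbered 2 in each replicate. Its mRNA value was 5.34 and 6.64 in the knockdown libraries and 5.84 in the control, below the median of 11.6 over all table genes. The next highest ratio outside the histones and H2BFS was 15.7. CD68 was the sole blood marker in the expression table and no blood marker was in the YTHDF1 list. The cause of the PLCG2 value was not tested.

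Most of the remaining large ratios belonged to mRNAs of long span. RNF213, a giant ubiquitin ligase, had 22.5 FPKM in the immunoprecipitate and 1.43 FPKM in the input, a ratio of 15.7. HERC2, also a giant ubiquitin ligase, had 35.3 FPKM in the immunoprecipitate and 2.61 FPKM in the input, a ratio of 13.5. AHNAK, a giant scaffold protein, stood at 13.4, and FAT1, an atypical cadherin, at 12.8. DYNC1H1, the heavy chain of cytoplasmic dynein, had 111.1 FPKM in the immunoprecipitate and 9.34 FPKM in the input, a ratio of 11.9. TRIO, a guanine nucleotide exchange factor, followed at 11.7, MDN1, a ribosome assembly ATPase, at 10.96, and RBM15, a subunit of the m6A writer complex, at 10.7. RBM15, with its last m6A peak at 3175 bases, was not among the genes of longest span. The counting interval was narrow for most of these, at 11.2 to 12.6 for DYNC1H1, 12.03 to 13.6 for FAT1 and 9.77 to 10.6 for PLEC, which encodes the linker protein plectin at a ratio of 10.2.

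Among genes with an input at or above the median of 4.89 FPKM, the 20 largest ratios were 9 histones and 11 other genes. After FAT1, DYNC1H1 and PLEC came TNRC18 at 8.56, the ubiquitin ligase UBR4 at 8.51, the chromatin remodeler EP400 at 8.38 and the ubiquitin ligase HUWE1 at 8.32. SNRNP200, a helicase of the spliceosome, stood at 8.18 with 265.5 FPKM in the immunoprecipitate and 32.4 FPKM in the input. PRKDC, the DNA-dependent protein kinase, stood at 7.91 and the polarity protein DLG5 at 7.12.

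**Figure D2:**
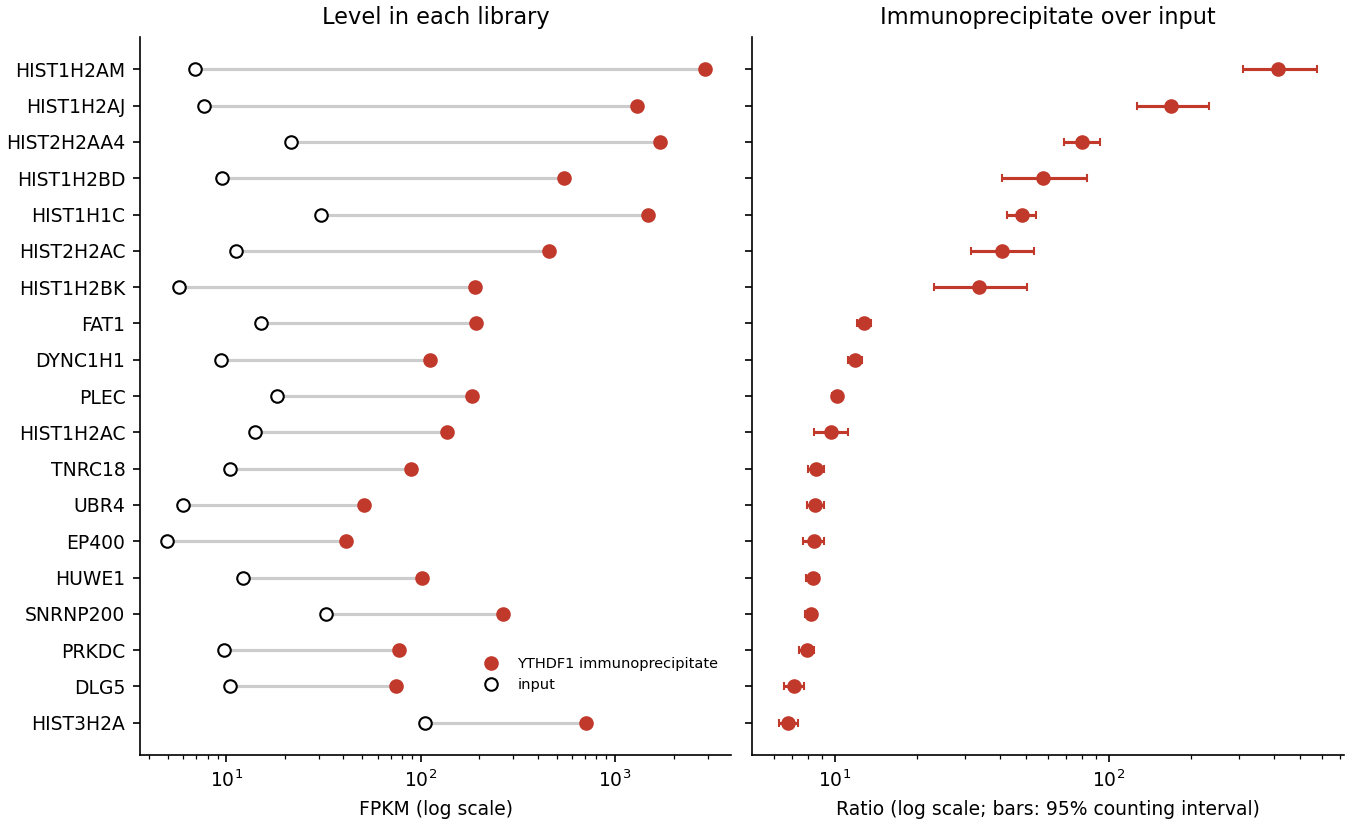
Genes among the 20 largest ratios at or above median input, all but 1 of them drawn, with immunoprecipitate and input FPKM on the left and the ratio with its 95% counting interval on the right, all on log scales. Histones hold the upper places, HIST1H2AC at 9.74 lies among the other genes, which run between 7.12 and 12.8, and HIST3H2A at 6.79 is lowest.

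Abundance in the immunoprecipitate and ratio were different properties. The highest immunoprecipitate level was that of HSP90AB1, a cytosolic chaperone, at 4232 FPKM in the immunoprecipitate and 2801 FPKM in the input, a ratio of 1.51. EEF2, the translocation factor of translation, had 3166 FPKM in the immunoprecipitate and 1854 FPKM in the input, a ratio of 1.71. The glycolytic enzymes PKM and TPI1 stood at ratios of 1.57 and 1.66, and EZR, which links actin to the membrane, at 1.92. All 5 lay below the median ratio.

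Ratio fell with input level. Of 10 groups by input, the lowest (up to 1.46 FPKM) had a median ratio of 2.76 and the highest (from 26.6 FPKM) had 1.96. Over all listed genes Spearman's rank correlation was -0.25. The points are genes of the same pair of libraries, input is the denominator of the ratio, and genes under a ratio of 1.5 are missing, so the value describes this list only. With 1 FPKM added to both levels the rank correlation was 0.02, so the direction does not hold under that setting. Families are therefore compared below with genes of the same input level.

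Ratio rose with transcript span. The span, the end of the last m6A peak along the transcript in either replicate, was known for 3658 listed genes, and the rank correlation between span and ratio was 0.40. In genes whose counting interval lay above 1.5 it was 0.35, against -0.48 for input and ratio. That filter keeps genes with few reads only at larger ratios, which by itself makes the value for input more negative. These values therefore cannot say which of input and span was more closely tied to the ratio. The median ratio was 1.95 for spans up to 1250 bases, 2.17 between 2425 and 2775 bases and 3.92 for spans of 5800 bases or more. In that last group 170 of 362 genes (47.0%) had a ratio of at least 4, against 10.9% of all listed genes. Span and input are themselves related (rank correlation -0.19), but within 5 groups of equal input the rank correlation between span and ratio was 0.35 to 0.38. At an input above 14.4 FPKM the median ratio was 3.05 for spans of 4625 bases or more and 1.83 for spans of 1700 bases or less. At the lowest input, under 2.12 FPKM, these medians were 3.73 and 2.32. With the length recovered from the FPKM values in place of span, which needs no m6A peak, the rank correlation was 0.30.

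Listing itself also went with span. Of the 5705 expression table genes with a peak, 2326 (40.8%) were listed. The share was 10.4% at a span up to 750 bases, 32.6% between 1700 and 1975 bases and 73.1% at 4700 bases or more. Listing had no such steady relation to mRNA level. In 10 groups by control mRNA it was 18.1% in the lowest, reached 46.9% at values of 11.6 to 16.6, and was 17.3% in the highest.

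**Figure D3:**
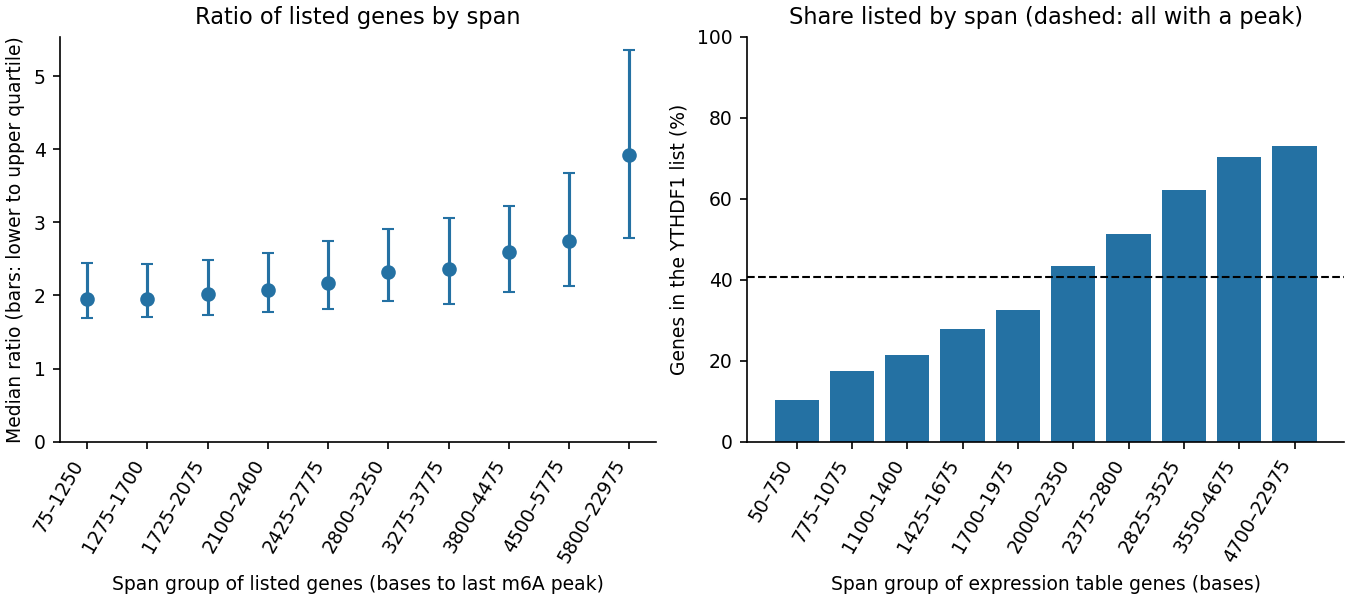
Left, the median ratio of listed genes with its quartiles in 10 groups by transcript span in bases. Right, the percentage of expression table genes with an m6A peak that are in the YTHDF1 list, in 10 groups by span, with a dashed line at the 40.8% of all table genes with a peak that are listed. Both rise with span, from 1.95 to 3.92 and from 10.4% to 73.1%.

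Functional families were set against the median log2 ratio of listed genes in the same 1 of 10 groups by input. Of 45 families, 37 had at least 5 listed members. At a fixed size of 0.2 on the log2 scale, 12 families lay above genes of like input and 2 lay below. With input and span matched together, 7 lay above, all of them among the 12, and 2 lay below. Lists overlap in part and were drawn up by function, except that the scaffold list holds giant proteins by its definition. Members and lists were chosen with earlier results of these data known, so the differences describe these lists and are no independent support.

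Apart from histones, the largest families above were giant proteins. The 31 giant cytoskeletal and scaffold genes had a median ratio of 5.88, and 25 had a ratio of at least 4. They lay 1.30 above genes of like input on the log2 scale, all 31 on the higher side, and 0.75 above genes of like input and span. HERC2, AHNAK and FAT1 had the largest ratios, and GOLGA4, a golgin, the smallest at 3.31. The 7 PI3K-related kinases and their partners lay 1.43 above genes of like input and 0.98 above genes of like input and span. The longest of the 5 span groups in that matching took in all spans from 4500 bases, and the ratio still rose with span there. Listed genes of 4500 to 5775 bases had a median ratio of 2.74, against 3.92 from 5800 bases. Median spans were 7475 bases for the scaffold genes and 8175 bases for the kinases, so span was only partly matched. With 10 groups by span alone the differences were 0.67 and 0.71. SMG1, the kinase of nonsense-mediated decay, stood at 9.03, PRKDC at 7.91, MTOR, the nutrient-sensing kinase, at 6.39, and TRRAP, a scaffold of acetyltransferase complexes, at 6.32. Their assembly factor TELO2 had the smallest ratio, 2.79. ATR and ATM were in the expression table and not in the list.

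Regulators of the genome were moderately above. The 102 chromatin modifiers and remodelers had a median ratio of 2.83 and lay 0.32 above genes of like input, 72 of them on the higher side. At matched input and span the difference was 0.10, at matched input and recovered length 0.12, and at matched span alone 0.05. EP400 at 8.38, KMT2D, a histone H3 lysine methyltransferase, at 7.48 and CHD6, a remodeler, at 6.88 led the family, while PHF19, a Polycomb subunit, had the smallest ratio at 1.51. The 25 DEAD and DEAH box RNA helicases lay 0.29 and 0.25 above, with DHX38, DHX34 and DHX30 at 4.86, 3.80 and 3.73 and DHX29 at 1.54. The 14 collagen, laminin and matrix genes lay 0.28 and 0.24 above, led by COL12A1 at 7.48, LAMA5 at 5.70 and COL18A1 at 5.36, with COL9A2 lowest at 2.26.

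Other families above at like input fell under the fixed size once span was matched too. The 7 integrins, receptors for matrix, lay 0.43 and then 0.20 above. ITGAV stood at 4.18, ITGA6 at 3.05 and ITGB5 at 2.83, with ITGA2 lowest at 2.50. Keratins and junction genes lay 0.28 and then 0.19 above, led by MLLT4 at 5.37, with the desmosomal protein DSP at 4.04 and PKP3 lowest at 1.66. Of the 22 such genes with an expression value, 7 (31.8%) were listed, close to the 33.6% of genes of like mRNA level. With span matched too, on genes with a peak, the share was 41.2% against 39.6%. The keratins KRT19, KRT8 and KRT18 had the highest control mRNA among those absent, at 1590, 1529 and 636. Splicing factors lay 0.25 and then 0.16 above, led by SNRNP200, PRPF8 at 5.42 and CELF1 at 4.996, with SF3B2 lowest at 1.52. Zinc finger genes were the largest family, with 141 listed, and lay 0.11 above at like input and 0.17 above at like input and span. ZSCAN20 stood at 7.98, ZKSCAN1 at 6.40 and ZNF316 at 6.11, and ZFP1 was lowest at 1.52.

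Families near genes of like input nevertheless held single mRNAs with large ratios, most of them long. Among receptor tyrosine kinases the insulin receptor INSR stood at 7.83, MET at 6.55 and EGFR at 4.73, with MST1R lowest at 1.66. In the Notch, Hippo and TGF-beta pathways the receptors NOTCH2 and NOTCH1 stood at 7.20 and 5.60 and the Hippo regulator FRMD6 at 5.30, against 1.52 for the receptor BMPR1A. Of the Mediator and TFIID subunits MED13L stood at 8.24, MED13 at 6.73 and TAF1 at 6.32, with MED24 at 1.70. In mRNA decay and miRNA pathways SMG1 was followed by DICER1 at 4.93 and TNRC6B at 4.82, and ZC3H12A, an endonuclease with only 4 immunoprecipitate reads, stood at 1.61. The nucleoporins were led by RANBP2 at 6.23, NUP160 at 4.66 and AHCTF1 at 3.69. Vesicle coat genes ranged between 5.93 for the sorting nexin SNX18 and 1.52 for the GTPase RAB35, with the coat scaffold SEC16A at 5.58 and clathrin heavy chain CLTC at 4.58. Deubiquitinases USP34 and USP9X stood at 6.77 and 6.18. In lipid synthesis the rate-limiting enzyme of fatty acids, ACACA, stood at 5.57 and fatty acid synthase FASN at 4.96. FASN was the more abundant of the pair, with 288 FPKM in the immunoprecipitate and 58.1 FPKM in the input.

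**Figure D4:**
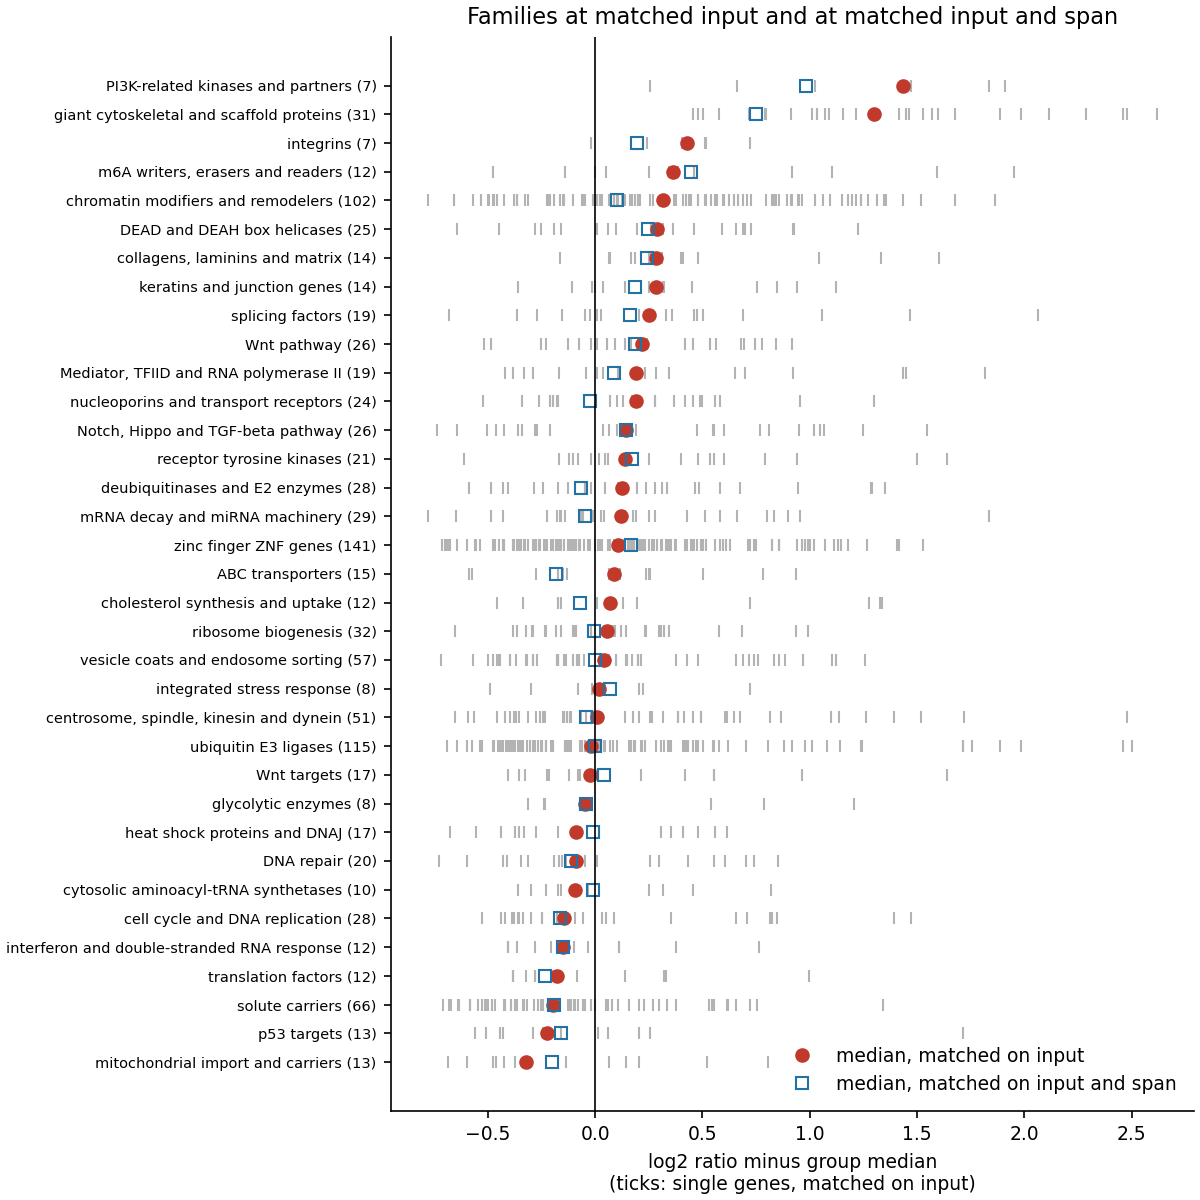
Each family's median log2 ratio relative to genes of like input (filled) and of like input and span (open), with single members as ticks and the number of listed members in brackets. The histones, 4.91 above, are left out for scale and 1 other family is not drawn, and the giant scaffold and PI3K-related kinase families lie farthest to the right on either measure.

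The m6A machinery was in the list with 12 genes, which lay 0.36 above genes of like input and 0.45 above genes of like input and span. With recovered length in place of span the difference was 0.187, and in genes whose counting interval lay above 1.5 it was 0.198 at like input, both under the fixed size of 0.2. Among writer subunits RBM15 stood at 10.7, with 15.3 FPKM in the immunoprecipitate and 1.43 FPKM in the input. RBM15B stood at 2.64 and KIAA1429 at 2.13. The catalytic subunit METTL3 stood at 1.89 and ZC3H13 at 1.53, the smallest of the family. Among readers YTHDF3 stood at 4.95, with 26.6 FPKM in the immunoprecipitate and 5.38 FPKM in the input, and YTHDC2, a helicase, at 3.61. YTHDF2 was in the expression table, at 28.8 in the control, and not in the list. YTHDC1 was in neither. The PRRC2 proteins, of which PRRC2A has been described as an m6A reader, stood at 6.44 for PRRC2B, 3.70 for PRRC2A and 2.21 for PRRC2C. Neither eraser was listed, with ALKBH5 at 47.2 and FTO at 19.9 in control mRNA.

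Wnt pathway genes were listed often, and their ratios lay slightly above those of genes of like input. This pathway carries signals from Frizzled and LRP receptors to beta-catenin, which then acts with TCF factors on transcription. Among the 26 pathway genes of the expression table, 20 (76.9%) were listed, against 34.7% of genes of like mRNA level and 46.5% of genes of like mRNA level and span. In all, 26 pathway genes were in the list, with a median ratio of 2.68 against 2.28 for the whole list. They lay 0.22 above genes of like input, close to the fixed size of 0.2, and 0.19 above genes of like input and span. Of the 26, 2 (7.69%) reached a ratio of 4, against 10.9% of all listed genes. LRP6, a co-receptor, had 5.21 FPKM in the immunoprecipitate and 1.099 FPKM in the input, a ratio of 4.74. CHD8, a remodeler that binds beta-catenin, stood at 4.53, and the receptor FZD7 at 3.95. In the destruction complex, AXIN2 stood at 3.07 and AXIN1 at 3.05, and the tankyrases TNKS and TNKS2, which act on axin, at 3.64 and 2.96. BTRC, the ubiquitin ligase subunit that recognises beta-catenin, had the smallest ratio, 1.64. CTNNB1, beta-catenin itself, had 52.8 FPKM in the immunoprecipitate and 22.6 FPKM in the input, a ratio of 2.33 with a counting interval of 2.05 to 2.65. TCF7L2, its transcription factor partner, had 68.6 FPKM in the immunoprecipitate and 36.8 FPKM in the input, a ratio of 1.86. The receptor RYK, the adaptor DVL3 and the inhibitor CTNNBIP1 had the highest control mRNA among the 6 pathway genes not listed.

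Wnt target genes differed widely among themselves. Among the 12 in the expression table, 8 (66.7%) were listed, against 31.1% of genes of like mRNA level and 35.3% of all table genes. With span matched too, the like genes were listed at 49.7%. The receptor tyrosine kinase MET stood at 6.55, the transcription factor SOX4 at 4.06 and the Notch ligand JAG1 at 3.52. MYC had 82.7 FPKM in the immunoprecipitate and 42.96 FPKM in the input, a ratio of 1.92, and CCND1, cyclin D1, had the smallest ratio at 1.53. The 17 listed targets lay at -0.03 relative to genes of like input. CD44, DKK1, BIRC5 and SOX9 were in the expression table and not listed.

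Few families lay below. Mitochondrial import and carrier genes (13) lay at -0.32 relative to genes of like input and -0.20 relative to genes of like input and span, although their range ran up to 4.08 for SLC25A29, with SAMM50 lowest at 1.51. Translation factors (12) lay at -0.18 and -0.24, with EIF4G1, the scaffold of cap-dependent initiation, highest at 3.91. None had a ratio of 4, against 10.9% of all listed genes and 2.28% in the highest of 10 groups by input. The family's median input of 79.9 FPKM falls in that group. p53 targets lay at -0.22 and -0.16, solute carriers (66) at -0.20 and -0.19, and cell cycle and replication genes at -0.15 and -0.16. In the last of these UHRF1 at 5.78 and POLE at 5.60 stood apart from CCND1 and CDC45, both near the limit of the list. Ubiquitin E3 ligases (115), which include RNF213, HERC2, UBR4 and HUWE1, had a family median of -0.02, so those large ratios were not shared by the family.

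The most abundant mRNAs of the expression table were largely missing from the list. Of its 100 genes with the highest control mRNA values, 5 were listed, and 40 of the 100 encode ribosomal proteins. In the highest of 10 groups by control mRNA, 17.3% were listed. The ranking leaves out 1501 listed genes that have no expression value. Among these are HSP90AB1 and EZR, at inputs of 2801 and 744 FPKM. Of 50 cytosolic ribosomal protein genes in the expression table only RPL29 was listed, at a ratio of 1.599, which is 2.00% against 17.8% of genes of like mRNA level. RPS27, RPL21 and RPS15 had the highest control mRNA among those not listed, at 12080, 4323 and 4165. Of 49 mitochondrial ribosomal protein genes in the table none was listed, against 26.1% of genes of like mRNA level, with MRPS34 the highest at 404.6. The 1 mitochondrial ribosomal protein gene in the YTHDF1 list, MRPL14 at 1.76, was not in the table. Of 42 subunits of oxidative phosphorylation 2 (4.76%) were listed, against 21.4% at like mRNA level, and NDUFS5, COX4I1 and ATP5I were highest among those absent. In all, 3 such subunits were in the list, led by SDHA at 2.48 and ATP5A1 at 2.07. Of 36 proteasome and CCT chaperonin genes 2 (5.56%) were listed, against 21.8%, namely the long PSME4 at 3.77 and PSMD2 at 2.67. CCT3, PSMA7 and CCT7 were highest among those absent.

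Genes were matched to the list by symbol as deposited, without alias names. An absent gene had a ratio under 1.5, an input under 1 FPKM or a different symbol in the list, and which of these held is not recorded. Spans were short in most of these families, with a median of 887.5 bases for mitochondrial ribosomal proteins and 650 bases for oxidative phosphorylation. The 1537.5 bases of proteasome and CCT genes lay near the 1550 bases of all table genes with a peak that were not listed. Only 28 of the 50 cytosolic ribosomal protein genes had an m6A peak, with a median span of 750 bases. Of these 28, 1 (3.57%) was listed, against 10.9% of genes of like mRNA level and span. For mitochondrial ribosomal proteins the counts were 0 of 36 against 15.1%, for oxidative phosphorylation 2 of 23 (8.70%) against 13.2%, and for proteasome and CCT genes 2 of 26 (7.69%) against 23.2%. Other highly expressed genes outside these families were also absent, such as ACTG1, a cytoplasmic actin, S100A6, GAPDH and ENO1. Yet the glycolytic enzymes as a family were listed at 8 of 14 (57.1%) against 27.7% of genes of like mRNA level. HK2, HK1 and PFKM led them at 5.69, 3.59 and 3.06, and PKM was lowest.

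**Figure D5:**
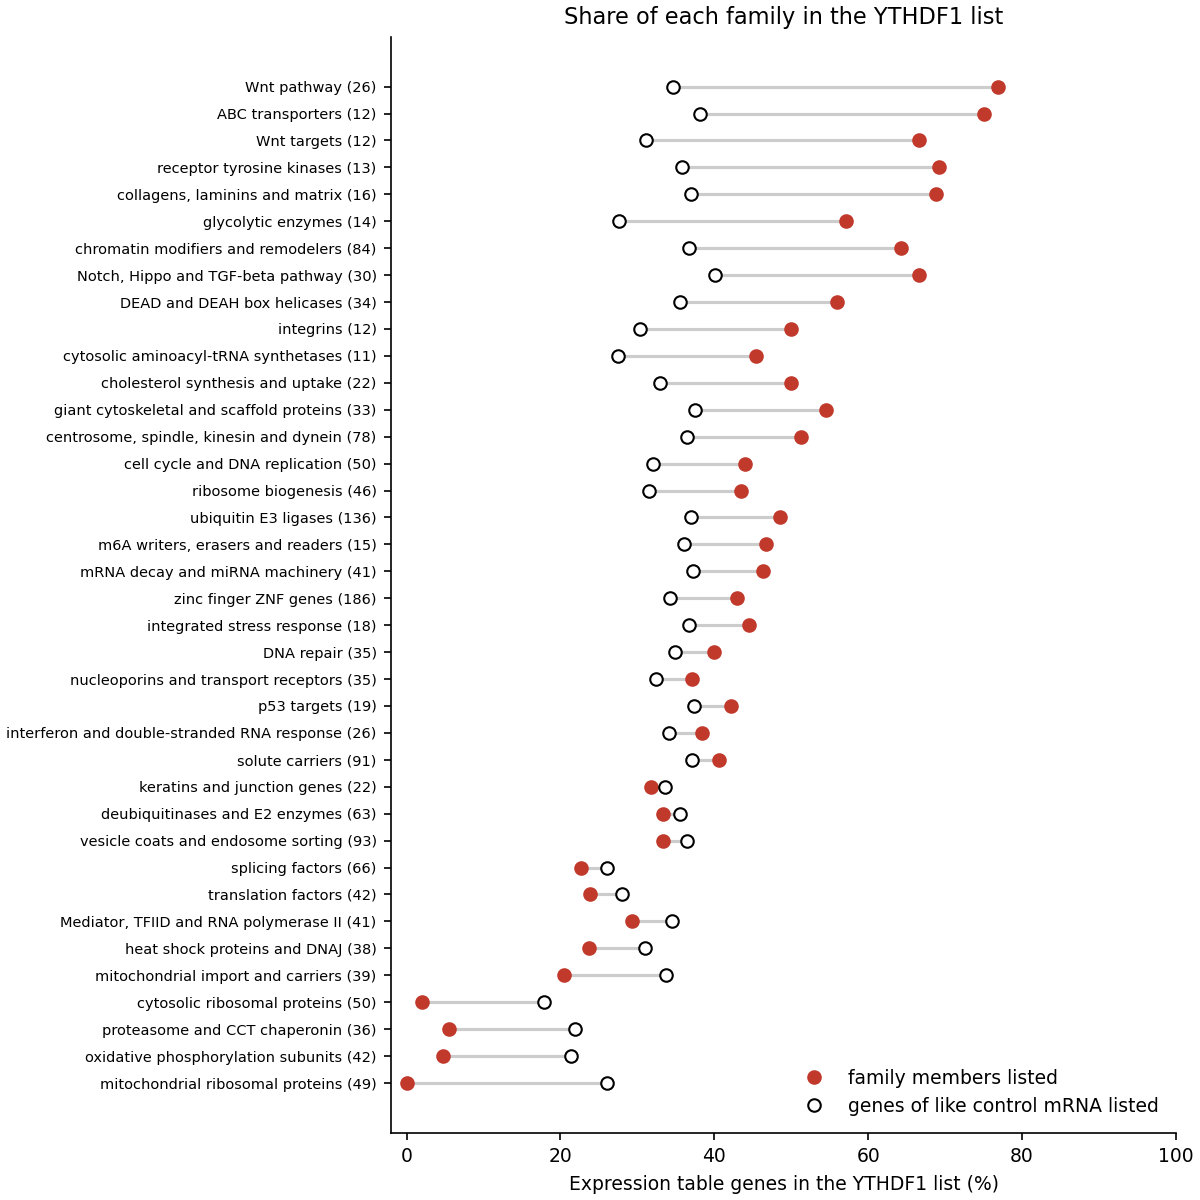
Percentage of each family's expression table genes that are in the YTHDF1 list (filled) and the percentage listed among genes of like control mRNA level (open), with the number of table genes in brackets, for families of at least 10 table genes, with 1 such family not drawn. The families at the bottom are mitochondrial ribosomal proteins, oxidative phosphorylation, proteasome with CCT, and cytosolic ribosomal proteins, and Wnt pathway genes are at the top.

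Some regulatory families were listed more often than genes of like mRNA level and others were not. Chromatin modifiers were listed at 54 of 84 (64.3%) against 36.7%, and Notch, Hippo and TGF-beta genes at 20 of 30 (66.7%) against 40.1%. Mediator, TFIID and RNA polymerase II subunits were listed at 12 of 41 (29.3%) against 34.5%, and deubiquitinases and E2 enzymes at 21 of 63 (33.3%) against 35.5%. With span matched as well, on genes with a peak, the chromatin modifiers stood at 69.3% against 58.7%. Giant scaffold genes, listed at 54.5% against 37.5% by mRNA level, stood at 66.7% against 71.9% once span was matched.

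Most ribosomal protein mRNAs begin with a 5′ terminal oligopyrimidine tract, a cytosine followed by an unbroken run of pyrimidines, through which their translation follows nutrient signals. The RefSeq start regions (GRCh38.p14) are shown for absent ribosomal protein genes, for the listed tract genes RPL29 and EEF2, and for the listed DYNC1H1 and HERC2. Each line runs 5′ to 3′ from 10 bases before to 20 bases from the annotated start, and capitals mark the tract from the first transcribed base.
RPS27: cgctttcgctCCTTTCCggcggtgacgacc
RPL38: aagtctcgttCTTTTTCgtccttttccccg
RPLP0: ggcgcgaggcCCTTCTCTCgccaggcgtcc
RPL29: cagcccctttCTCTTCCggttctaggcgct
EEF2: cgtcagcgttCTCTTCCgccgtcgtcgccg
DYNC1H1: cgctctcctcagtctgcggtgggctagcgg
HERC2: cccgcccctcgggccgcgagaggcgccggg

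A tract of at least 5 bases (C, then only C or T, on the transcribed strand) was found at 26 of 42 ribosomal protein starts (61.9%), against 4.04% of all 27305 RefSeq windows. The windows lie at chromosome 1, 153990752 to 153990781 (plus strand) for RPS27, chromosome 17, 74203668 to 74203697 (plus strand) for RPL38 and chromosome 12, 120201092 to 120201121 (minus strand) for RPLP0. Among the ribosomal proteins the sole listed gene, RPL29, itself carried the tract. Of 301 table genes outside the family with the tract 93 (30.9%) were listed, against 33.8% of genes of like mRNA level. Mitochondrial ribosomal protein genes of the expression table, none of them listed, had it at 2 of 45 starts (4.44%). EEF2, with the tract CTCTTCC, was listed at one of the highest immunoprecipitate levels. RPL19 and RPS15 have no tract of that length at the annotated first base, and the starts used in HCT116 cells were not measured here.

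Nearly all listed genes carried m6A peaks. Of 3939 listed genes 3380 (85.8%) had a peak in both m6A-seq replicates and 281 had none in either. Within the expression table, 89.1% of listed genes had a peak in both replicates, against 62.3% of genes not listed, and against 64.8% after weighting those to the mRNA levels of the listed genes. Span is known only for genes with a peak, so it could not be matched in this difference. Among genes with a peak the median span was 2825 bases for listed and 1550 bases for genes not listed. Within the list the ratio was only loosely tied to the mark. Its median was 2.30 in genes with a peak and 2.03 in the 281 without, whose median input was 2.68 FPKM against 5.08 FPKM in genes with a peak. Genes with 7 or more peaks in the fuller replicate had a median ratio of 3.05 and a median span of 5412 bases. Genes with 1 peak had a median ratio of 2.08 and a median span of 1350 bases. Within groups of like span, the rank correlation between the number of peaks and the ratio was between -0.10 and 0.04 in the 4 groups under 4500 bases. It was 0.27 in genes of 4500 bases or more, a group in which span still varies widely.

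Peak sequences of listed genes held the GGAC core slightly more often. The deposited 5-base motif at the marked adenosine started with GGAC in 33.3% of 5490 peaks in the third of listed genes with the largest ratios, in 33.6% of 4052 peaks in genes of middle ratio and in 31% of 3306 peaks in the third with the smallest, in replicate 1. In table genes not listed it was 28.5% of 6950 peaks. Replicate 2 gave 32.1%, 32.6%, 30.5% and 27.1% in the same order, so the share did not rise steadily with ratio. Peaks of 1 gene are not independent, and no test was made.

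After knockdown of YTHDF1 the medians of listed genes lay near those of the rest. The footprint value, on the log2(value + 1) scale, had a median change of -0.20 in knockdown 1 and -0.38 in knockdown 2 for the 2438 listed genes. For the 4476 genes not listed it was -0.21 in knockdown 1 and -0.32 in knockdown 2. The mRNA value had a median change of -0.07 and 0.04 for listed genes and of -0.03 and 0.01 for genes not listed. Translational efficiency, the footprint change minus the mRNA change, had a median of -0.15 in knockdown 1 and -0.45 in knockdown 2 for listed genes, against -0.20 and -0.32 for genes not listed. Listed genes were thus higher than the others in knockdown 1 and lower in knockdown 2. With both knockdown libraries averaged per gene first, the medians differed by -0.03. Ordering by ratio gave no common direction in efficiency. The third with the largest ratios stood at -0.15 and -0.47 in efficiency and the third with the smallest at -0.16 and -0.43. The mRNA change was -0.04 and 0.07 in the third with the largest ratios, -0.14 and 0.03 in genes of middle ratio and -0.07 and 0.02 in the third with the smallest. In the 256 table genes with a ratio of at least 4 it was 0.05 and 0.10, higher than in the third with the smallest ratios in both knockdown libraries. Both knockdown libraries are compared with the same control library, so the 2 sets of changes are not independent.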

How the data were processed

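Per the file headers, the authors deposited FPKM values of the YTHDF1 immunoprecipitate and of its input, and the ratio of these FPKM values with no pseudocount. For each gene of the expression table the deposited value is a signal of unnamed unit, every control value being at least 0.5. The m6A lists give window positions, peak signal in immunoprecipitate and input, and the authors' peak ratio, per replicate. The submitters' processing notes name STAR and GRCh38, without versions.

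Names damaged by a spreadsheet (8 in the YTHDF1 list, 12 in the expression table) were kept out of families, and 1 symbol stands on 2 rows. Reads and lengths were recovered from the FPKM values by search for whole numbers (lengths of 200 to 40000 bases), tested on simulated data. Families were compared with genes of 10 groups by input or span, or of 5 by 5 groups by both. Expected listing shares came from 10 groups by control mRNA. The members and lists were chosen with earlier results of these data known. Named genes were the 20 largest and 5 smallest ratios at or above median input, the 10 highest immunoprecipitate levels, up to 3 of the largest and the smallest ratio per family, the highest absent genes, and fixed Wnt and YTH genes. Other genes in the text were chosen after their values were seen. A few genes and 1 family that these rules name are not reported here or drawn in the figures. Of the listed names 99.3% were found in RefSeq. Alternatives covered pseudocounts, input minimum, group number, span source and single libraries. Python 3.11.15, pandas 2.3.3, numpy 2.4.6 and scipy 1.17.1 were used.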

Additional observations from a re-analysis of the deposited data

How the results depend on the processing

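No paired analysis was possible because the results come from no test and the immunoprecipitate and the input are 1 library each. Protein length in place of span was not run, as no protein table was used here. Settings by counting interval, recovered length, and input or mRNA matched together with span were chosen after seeing the data. The median ratio of 2.28 was 2.02 with 1 FPKM added, 2.10 at an input of at least 5 FPKM and 2.75 in genes whose interval lay above 1.5. The rank correlation between input and ratio, -0.25, reversed to 0.021 with 1 FPKM added and was -0.14 and -0.48 in those other settings, in part because both leave out genes. The share of table genes listed, 35.3%, was 36.5% at a control mRNA of at least 5 and 22.4% for listing at a ratio of 2. The share of listed genes with m6A peaks was 89.0% and 89.7% with 1 replicate each, and 89.1% at an input of at least 5 FPKM. The efficiency difference of listed and other genes ran from -0.13 to 0.051 with 1 knockdown library each. Giant scaffold genes lay 0.90 above like input in genes whose interval lay above 1.5 and 0.88 above like input and recovered length. Against genes of like mRNA, in percentage points, mitochondrial ribosomal proteins stood at -14.4 for listing at a ratio of 2. With span matched too they stood at -15.1, oxidative phosphorylation at -4.47 and chromatin modifiers at 10.6. Signs reversed with span matched for mRNA decay genes (-3.05), giant scaffold genes (-5.22) and DNA repair (-5.996). At a ratio of 2 they reversed for aminoacyl-tRNA synthetases (-6.34), Mediator and polymerase genes (3.11) and cell cycle genes (-3.16). The 12 families above like input at the fixed size numbered 11 to 16 in planned settings, with the Wnt pathway (0.19) lost with 1 FPKM added. In genes whose interval lay above 1.5 there were 10, of which 9 were among the 12, with matrix, keratin and m6A genes lost and neither of the 2 families below kept. With input and recovered length matched 8 of the 12 kept the call, with the Wnt pathway, chromatin (0.12), m6A (0.187) and splicing genes lost, and 1 of the 2 below was kept. Depth limits the low genes, with a median of 26 immunoprecipitate reads in the lowest of 10 groups by input. The cause of these shifts was not tested.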
